A study of Mus musculus with 44 samples.

Results

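The 8 genes described here encode components and regulators of complement: C3, C4b, Cfb, the C1 proteases C1ra and C1s1, the related protease C1rl, the C1 inhibitor Serping1 and the membrane regulator Cd59a. They were taken by symbol from a fixed list, and all 8 have a row among the 12707 symbols of the deposited table. The table holds 44 single cells from hindlimb muscle of adult C57BL/6 mice carrying Prrx1-CreERT and a Tomato reporter. All mice received 2 mg of tamoxifen per day for 3 days, and there was no untreated or control group. Prrx1 drives a Cre that tamoxifen activates, so the label marks cells in which this driver was active, and their descendants. Tomato-positive cells were sorted and picked singly. No animal is named for any cell, and the 44 cells are therefore 1 sample. Spread over cells is not replicate error, and no p-value is given.

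Complement is a cascade of plasma and tissue proteins that tags and lyses targets. In the classical route, C1q recruits the proteases C1r and C1s, which cleave C4 and C2, and the product cleaves C3; the alternative route cleaves C3 through factor B and factor D. C1 inhibitor blocks C1r and C1s, and regulators such as CD55, Crry and CD59 stop the later steps on host cells. The liver makes most plasma complement, and fibroblasts are known to make several components locally.

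Levels are log2 FPKM (fragments per kilobase of transcript and sequencing depth) as the authors deposited them. FPKM is scaled to transcript length, so levels can be set side by side between genes. The cells had been forced to a shared distribution, so a level is closer to a rank within its cell than to an amount of RNA, and the depth of each cell is unknown. Low values were shared between linked libraries. The 44 cells fell into 2 sets of 21 and 23 cells with no link between them, and within the sets into 6 blocks of mutually linked libraries with cells 30 and 44 in none. Genes strong in a single cell reached a log2 value of 1 in 35.3% of linked and 5.58% of unlinked cells. A cell is therefore said to hold a gene at a log2 value of 5 or more, which is FPKM 31. By their markers the cells were fibroblast-like: all 10 measured fibroblast genes were held by at least 22 cells. Of 13 macrophage genes, 11 reached a log2 value of 1 in no cell, and the summed FPKM of the list ran from 0 to 444 per cell, the highest being Cd68 in cell 4.

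The 8 genes spanned nearly the whole range of expression in these cells. Serping1 was held by all 44 cells, C1s1 by 37, C3 and C1ra by 34 each, C4b by 11, Cfb by 8, C1rl by 3 and Cd59a by 1. Thus 4 of the 8 were held by at least 22 cells, against 5.25% of all symbols. At a log2 value of 1 it was 6 of 8, against 25.4% of all symbols. The median over the 8 genes of the number of cells that held them was 22.5, and over all symbols it was 2. The genes had been picked with earlier results of these data known, so these shares describe the choice as well as the cells.

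**Figure D1:**
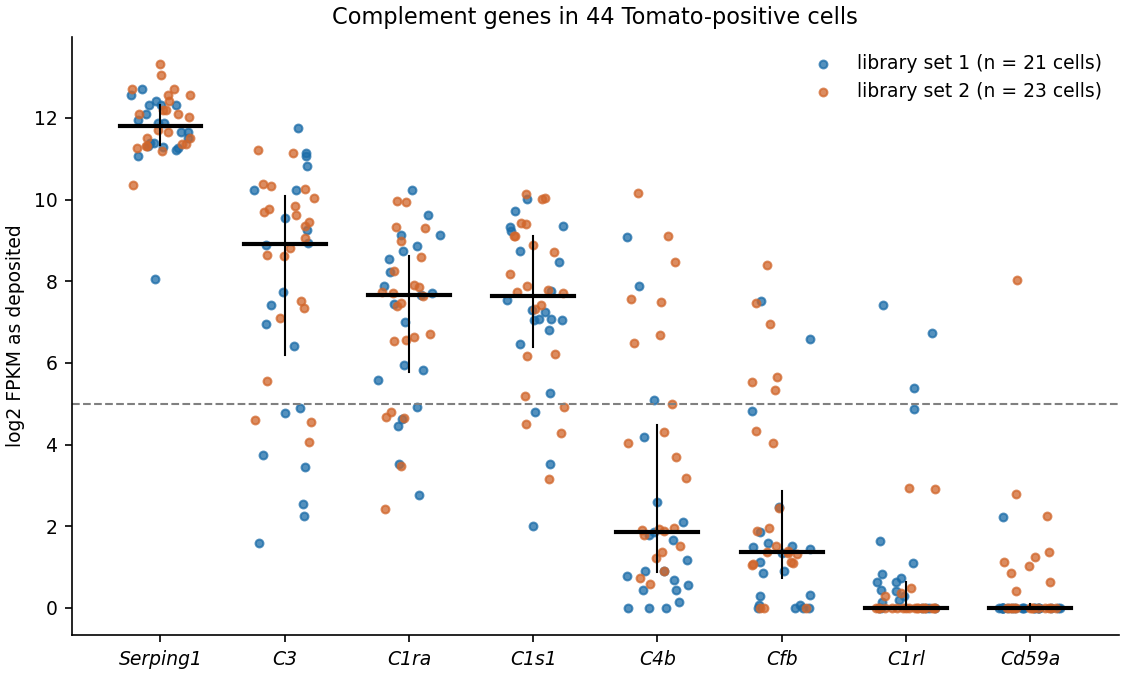
Log2 FPKM of the 8 complement genes (vertical axis) in each of 44 cells, coloured by the 2 sets of linked libraries (21 and 23 cells). Thick bars are medians, thin lines quartiles over cells, and the dashed line is the log2 value of 5; Serping1 lies above it in all 44 cells and Cd59a in 1.

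Serping1 (ENSMUSG00000023224, chromosome 2, 84765387 to 84775444, minus strand, GRCm38) encodes C1 inhibitor, a serpin that inactivates C1r and C1s. Its lowest value was 8.05, its median 11.79 and its highest 13.32, in cell 23. Its median rank within a cell was 15.5 of 12707 symbols. The values were the least spread among the 4 most frequent genes, with quartiles of 11.34 and 12.32. Cell 8 stood alone at the low end, followed by cell 40 at 10.36 and cell 17 at 11.06. In cell 8 the FPKM of 263 was 3.08 times the signal expected from its linked libraries; in the other 43 cells Serping1 lay above 5 times that signal. The block medians ran only from 11.39 to 12.19. Among other serpins, Serpinf1, an antiangiogenic serpin without inhibitory activity, was also held by 44 cells, at a median of 10.95, and Serping1 was the higher of the pair in 36 cells.

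C1ra and C1s1 encode the proteases of the C1 complex. C1ra (ENSMUSG00000055172, chromosome 6, 124512405 to 124523443, plus strand) ran from 2.42 in cell 39 to 10.24 in cell 19, with a median of 7.66. C1s1 (ENSMUSG00000038521, chromosome 6, 124530345 to 124542359, minus strand) ran from 2.01 in cell 8 to 10.14 in cell 42, with a median of 7.63. The medians of these partners thus differed little: within a cell the difference C1ra minus C1s1 had a median of -0.09 and quartiles of -2.06 and 1.44, and C1ra was higher in 20 cells and C1s1 in 24. Both proteases were held together by 30 cells (68.2%, exact Clopper-Pearson 95% interval 52.4 to 81.4, counting error only), with 28.6 expected from the separate shares. C1s1 without C1ra was found in 7 cells and C1ra without C1s1 in 4. Cells 16, 36 and 39 held neither. The inhibitor lay above both proteases in every cell. Serping1 minus C1ra had a median of 4.27 on the log2 scale, with a range of 1.40 to 9.28, and Serping1 minus C1s1 a median of 4.37 and a range of 1.21 to 8.55.

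The start regions of both protease genes are shown because the genes are neighbours with like median levels. Each sequence is 300 bases, from 250 before to 50 after a RefSeq start on GRCm38.p6, and 5 of the 8 genes have an entry (C1s1 has 2, of which 1 is shown). Capitals mark matches on either strand to letters of core motifs of the C/EBP (TTGCNNAA), STAT (GAS, TTCNNNGAA), IRF (GAAA, any 2 bases, GAAA) and NF-kB (GGGA, any 4 bases, CC) factor families and to TATAAA.
C1ra, chr6:124512371-124512670, plus strand: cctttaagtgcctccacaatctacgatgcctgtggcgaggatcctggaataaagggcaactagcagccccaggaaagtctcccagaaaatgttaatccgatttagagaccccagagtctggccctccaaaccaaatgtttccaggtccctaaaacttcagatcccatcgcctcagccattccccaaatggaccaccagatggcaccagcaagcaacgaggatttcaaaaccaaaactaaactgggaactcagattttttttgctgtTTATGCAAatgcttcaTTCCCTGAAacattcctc
C1s1, chr6:124542310-124542609, minus strand: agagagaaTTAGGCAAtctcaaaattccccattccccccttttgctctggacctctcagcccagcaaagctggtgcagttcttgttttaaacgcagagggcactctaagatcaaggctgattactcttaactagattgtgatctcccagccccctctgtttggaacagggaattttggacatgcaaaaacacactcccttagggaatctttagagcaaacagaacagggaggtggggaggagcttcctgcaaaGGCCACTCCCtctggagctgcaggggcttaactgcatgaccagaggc
The C1ra region held 1 C/EBP match, 17 to 24 bases from the start, and 1 GAS match, at 33 to 41. The C1ra gene as given above starts at 124512405, so the RefSeq start and most of this window lie within the gene. The C1s1 region held 1 C/EBP match, at -242 to -235, and 1 NF-kB match, at 4 to 13. The window of the other C1s1 start, not shown, held the same NF-kB letters at -35 to -26 and no C/EBP match. Of 32544 mouse start regions of this length, 10.8% held the C/EBP letters, 8.33% the GAS letters and 20.8% the NF-kB letters. The matches are descriptions of sequence, and binding was not measured.

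C1ra and its copy C1rb could not be kept apart with certainty. C1rb, 27934 bases beyond C1s1, was held by 25 cells with a median of 5.67, below C1ra in all 44 cells, and their Spearman rho over the cells was 0.91. Of all stretches of 50 bases in C1rb transcripts, 59.2% also occur in C1ra. For C1s2, the copy of C1s1, the share was 26.9%, and it was held by 0 cells. A separate row with the symbol C1s2 but a gene ID outside the annotation was held by 5. No source used here says how reads were divided between the copies, so the C1ra level may include reads of C1rb and the reverse. C1rl encodes a C1r-like protease, and its transcripts share no stretch of 50 bases with C1ra. It starts at 124493113 on chromosome 6 and ends 1761 bases before C1ra. It was held by cells 7, 13 and 14, at 7.41, 6.72 and 5.38, and cell 19 lay just under the threshold at 4.87. All 4 belong to the first set of libraries, and in the second set C1rl reached at most 2.94, in cell 38. It stood at exactly 0 in 22 cells.

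C4b and C3 are the thioester proteins that the proteases activate in turn. C4b (ENSMUSG00000073418, chromosome 17, 34728380 to 34743882, minus strand) was listed at 0 in 3 cells, had a median of 1.87 and reached 10.17 in cell 42. It was held by 11 cells (25%, 13.2 to 40.3), at a median of 7.56 among them. Cells 42, 43 and 1 were highest, at 10.17, 9.10 and 9.07, and cell 30 lay on the threshold at 5.00. Thus a minority of cells held C4b at this threshold, but no wide gap set them apart, as the highest value below was 4.30 in cell 40. Of the 33 cells below the threshold, 29 were linked to a cell above it, and 19 of these reached a log2 value of 1, against 0 of the 4 that were not linked. The near-copy C4a, whose transcripts share 30.6% of their stretches of 50 bases with C4b, was held by 5 cells and had a rho of 0.67 with C4b, so these rows are also uncertain. C2, the protein that C4b binds to form the classical C3-cleaving enzyme, was held by 6 cells, with a maximum of 7.98 in cell 37. C4b and C2 were held together by 3 cells, namely cells 1, 33 and 37. These 3 cells also held C1ra, C1s1 and C3.

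C3 (ENSMUSG00000024164, chromosome 17, 57203970 to 57228136, minus strand), where all routes meet, had the second highest median. Its lowest value was 1.60 in cell 12, its median 8.92 and its highest 11.76 in cell 20. It was held by 34 cells (77.3%, 62.2 to 88.5). Serping1 exceeded C3 in all 44 cells, by a median of 3.06, and C3 exceeded C1ra in 33 of 44, by a median of 1.25 with quartiles of 0.22 and 2.50. C3 differed most between blocks among the 8 genes. Its block medians ran from 3.44 to 10.03, and it was held by 3 of 7 cells in 1 block, 4 of 7 in 2 blocks and 7 of 7 in the other 3. In the first set of libraries 14 of 21 cells held it and in the second 20 of 23. Blocks follow the libraries, and no source used here says whether they also follow animals or days, so cells and libraries cannot be told apart in this spread.

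The start region of C3 is shown because, of the 4 studied genes held by at least 22 cells, C3 had the widest quartiles.
C3, chr17:57228087-57228386, minus strand: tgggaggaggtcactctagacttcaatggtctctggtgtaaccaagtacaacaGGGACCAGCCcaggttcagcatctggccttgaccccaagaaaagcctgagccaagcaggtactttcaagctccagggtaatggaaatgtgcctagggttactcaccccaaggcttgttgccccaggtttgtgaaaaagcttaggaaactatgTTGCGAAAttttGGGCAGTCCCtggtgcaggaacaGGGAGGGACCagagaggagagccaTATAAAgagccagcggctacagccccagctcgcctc
It held 1 C/EBP match at -45 to -38, 3 NF-kB matches at -197 to -188, -33 to -24 and -10 to -1, and TATAAA at 15 to 20, a motif held by 13.6% of start regions. No GAS or IRF letters were in this window.

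**Figure D2:**
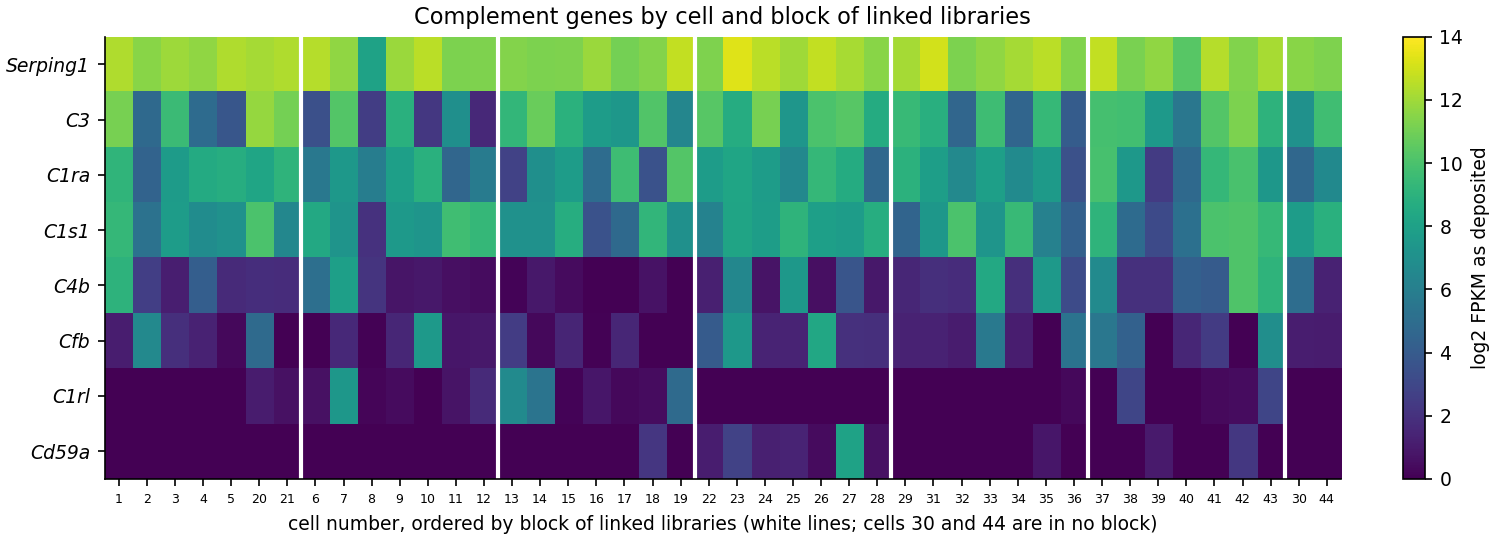
Log2 FPKM (colour) of the 8 complement genes (rows) in each of 44 cells (columns), ordered by block of linked libraries, with white lines between blocks and cells 30 and 44 in none. Serping1 is high throughout, C3 has its lowest block median of 3.44 in the second block, and C4b, Cfb, C1rl and Cd59a stand out in single cells.

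Cfb (ENSMUSG00000090231, chromosome 17, 34856374 to 34862518, minus strand) encodes factor B, the protease of the alternative route. It was listed at 0 in 7 cells, had a median of 1.38 and reached 8.39 in cell 26. The 8 cells that held it (18.2%, 8.19 to 32.7) were cells 2, 10, 23, 26, 33, 36, 37 and 43. Of the 36 cells below the threshold, 31 were linked to one above it, and 21 of these reached a log2 value of 1, against 2 of the 5 that were not linked. C3 and Cfb were held together by 5 cells, with 6.18 expected. C4b and Cfb were held together by 4, cells 23, 33, 37 and 43, with 2 expected. Factor D (Cfd), which cleaves factor B, reached a log2 value of 1 in 0 of 44 cells; taking 3 cells as the limit that a count of 0 allows, the share of cells at that value could be up to 6.82% (counting error only). Properdin (Cfp), which stabilizes the alternative C3-cleaving enzyme, reached it in 2 cells and was held by 0. Cfb lies 112491 bases from C4b and 85 bases from C2, in the class III region of the mouse MHC. C2 and Cfb were held together by cells 33 and 37, with a rho of 0.15.

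Cd59a (ENSMUSG00000032679, chromosome 2, 104095801 to 104115354, plus strand) encodes a membrane protein that blocks pore formation by the terminal components. It was held by cell 27 only, at 8.04 (1 of 44, 2.27%, 0.0575 to 12.02). It stood at exactly 0 in 31 cells, and its next highest values were 2.78 in cell 23 and 2.25 in cell 42, both of which are linked to cell 27. Cell 18, in the other set of libraries, followed at 2.23. Of the 8 cells linked to cell 27, all were above 0 and 5 reached a log2 value of 1; of the 35 not linked, 4 were above 0 and 2 reached it. Its copy Cd59b was held by 1 cell, cell 16, at 5.63. The terminal component C7 was held by 5 cells, and the other terminal genes of the list are not analysed here.

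Regulators of the C3 step ranged from frequent to undetected at the threshold. Crry (Cr1l), the rodent membrane regulator of C3 cleavage, was held by 26 cells at a median of 5.50, and Cd55, which speeds the decay of C3-cleaving enzymes, by 20 at 3.86. At least 1 of this pair was held by 35 cells, and both by 11. Of the 34 cells that held C3, 28 also held at least 1; the exceptions were cells 7, 11, 15, 18, 19 and 33. Thrombomodulin (Thbd), which promotes inactivation of C3b, was held by 27 cells and vitronectin (Vtn), which blocks the terminal complex, by 11, with its maximum of 11.12 in cell 36. Cd46, a cofactor for C3b inactivation, was held by 0 cells, and its maximum was 4.54. Of the remaining regulators, clusterin (Clu) was held by 5 cells, Cd55b, a copy of Cd55, by 4 and Csmd1 by 1.

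Among genes that start the cascade or sense its products, most were not detected. C1qa, C1qb and C1qc, the recognition chains that macrophages typically make, reached a log2 value of 1 in 0 of 44 cells, as did the lectin Fcna. The scavenger lectin Colec12 was held by 22 cells at a median of 4.90, the lectin-route protease Masp1 by 5 and Colec11 by 1. Receptors for the cleavage products, C3ar1, C5ar1, Cr2 and the integrin chains Itgam and Itgb2, also reached a log2 value of 1 in 0 cells. Lrp1, an endocytic receptor that takes up serpin-protease complexes, was held by 42 cells and calreticulin (Calr), which binds C1q, by 34. Both have many other roles. Over all roles, 6 of the 32 other measured complement genes were held by at least 22 cells and 14 by none. Of all symbols, 5.25% were held by at least 22 cells and 78.0% by at least 1. The median was 1 cell over the 32 genes and 2 over all symbols.

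**Figure D3:**
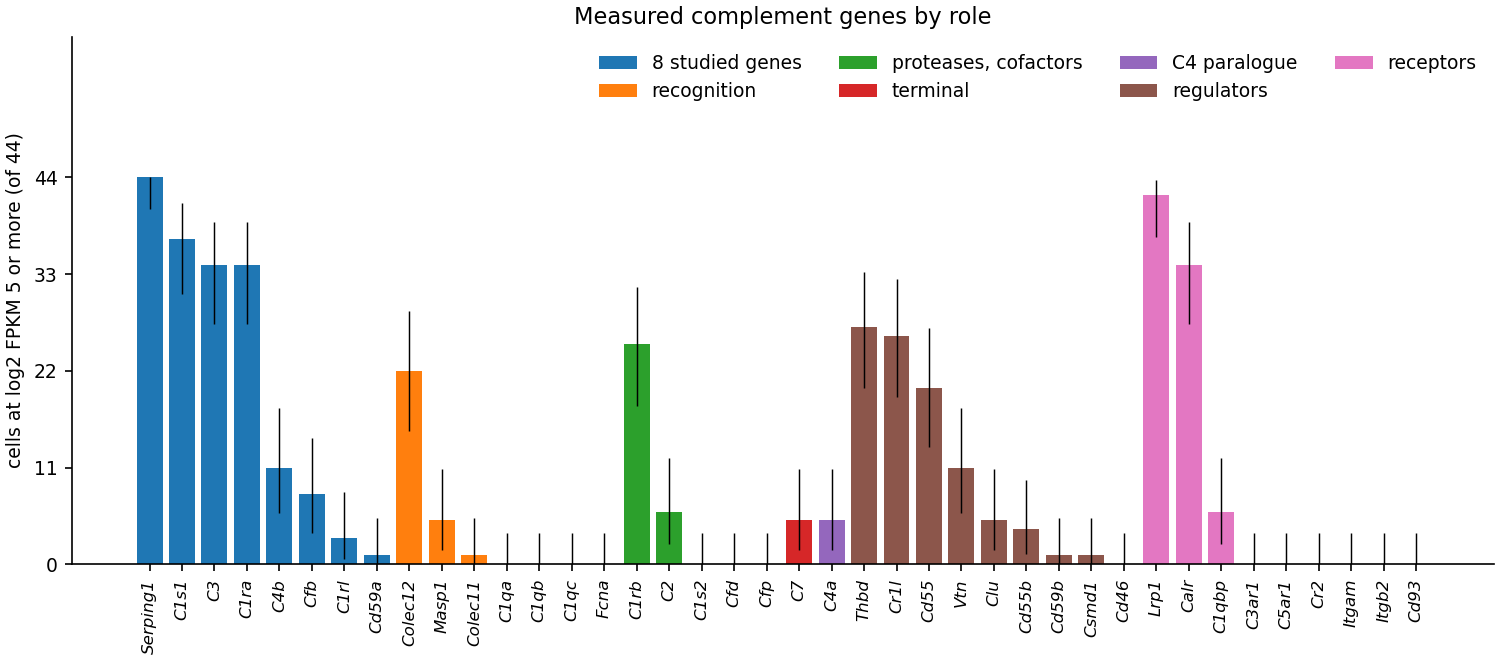
Number of the 44 cells at a log2 FPKM of 5 or more (vertical axis) for the 8 complement genes and 32 other measured complement genes, grouped by role, with exact 95% intervals that cover counting error only. The C1q chains, Cfd and the receptors C3ar1 and C5ar1 are at 0, while Serping1 is at 44 and Lrp1 at 42.

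Cells held between 2 and 6 of the 8 genes, with a median of 4. Cells 7, 23, 33, 37 and 43 held 6, and cells 8, 16, 36 and 39 held 2. The 3 most frequent after Serping1, that is C3, C1s1 and C1ra, were held together by 23 cells (52.3%, 36.7 to 67.5). With C4b added it was 9 cells. The cells with few complement genes were of more than 1 kind. Cell 8 held Serping1 and C1ra, 6 of 8 tendon markers and 3 of 10 fibroblast genes. Cell 36 held Serping1 and Cfb at 5.33, with 9 of 10 mural markers and 4 of 10 fibroblast genes. Cells 16 and 39 held Serping1 and C3, with 10 and 8 fibroblast genes and 1 mural marker each. Cell 40, with 6 tendon markers, held 3 complement genes; C3 at 5.55 and C1s1 at 5.19 were there 2.35 and 3.13 times the signal expected from linked libraries. Cell 17, with 7 tendon markers, held C1ra at 9.63. Cell 30, with 8 mural markers and 9 fibroblast genes, held 4 complement genes, equal to the median over cells.

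The 8 genes moved together only weakly across cells. With values under 5 set to 5, 20 of the 28 pairs had a Spearman rho above 0 and the median was 0.14. For the 10 pairs of the 5 genes held by at least 11 cells, all were above 0, with a median of 0.22. Over all pairs of the 1834 symbols held by at least 11 cells, the median was 0.00 and the quartiles were -0.10 and 0.11. The points share normalization and linked libraries, so these values describe the cells only. Serping1 and C1ra had the highest rho, 0.51, with Pearson's r of 0.45. It was 0.46 in the first set of libraries, 0.54 in the second, 0.49 with ranks centred within blocks and 0.49 without cells 8 and 23, the farthest from the Serping1 median. C3 and C1ra followed at 0.41, but this was 0.76 in the second set and 0.12 in the first, so it rests on the second set. Serping1 and C1s1, the other protease that C1 inhibitor blocks, had a rho of 0.17, and C1ra and C1s1 themselves 0.12. The latter was -0.09 in the first set and 0.28 in the second. The genes for C1ra and C1s1 lie 6901 bases apart, tail to tail. C1rl, held by 3 cells, and Cd59a, held by 1, are at the floor in nearly every cell, so their rho values carry little. Their pairs are among the 28 counted above. C4b reached 0.29 with C1s1, 0.26 with Serping1 and 0.26 with Cfb; the last was -0.13 in the first set.

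**Figure D4:**
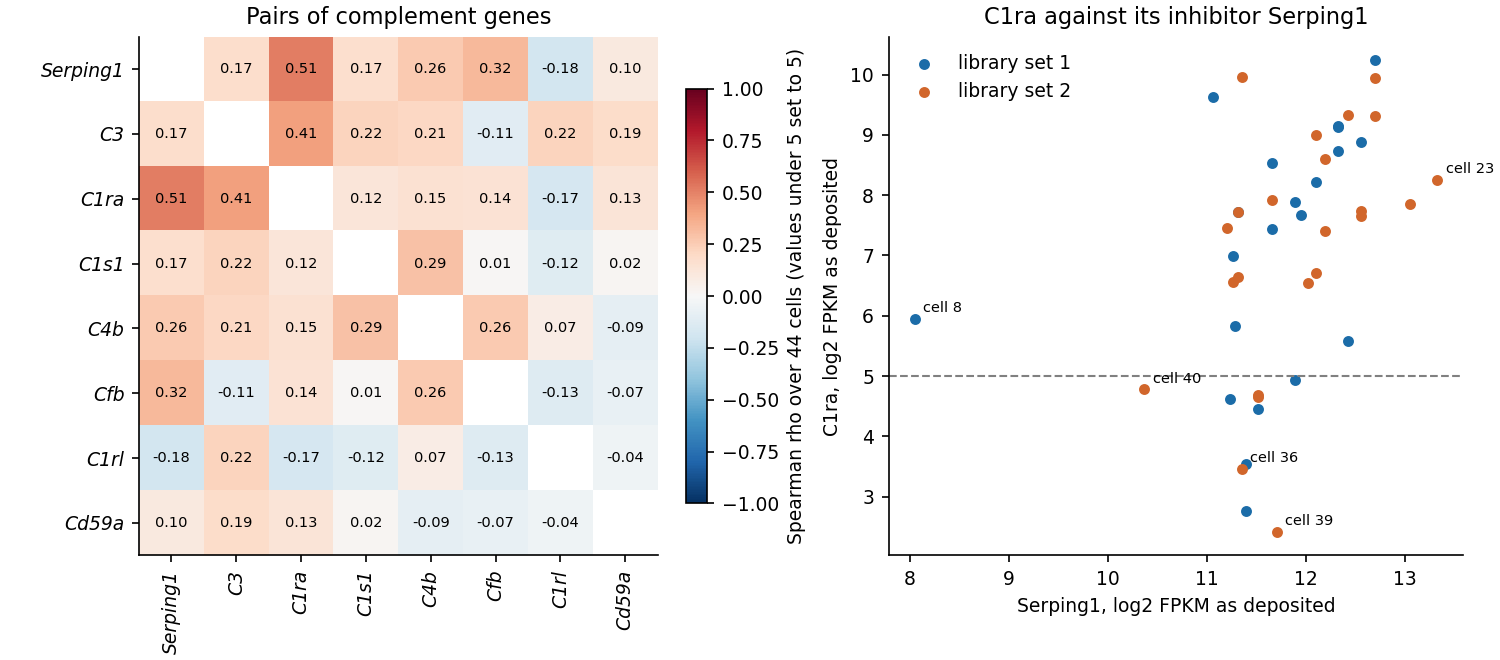
Left, Spearman rho over 44 cells for each pair of the 8 complement genes (colour and number), with values under 5 set to 5. Right, log2 FPKM of C1ra against Serping1 in each cell, coloured by set of linked libraries, with cells 8, 23, 36, 39 and 40 named and a dashed line at 5; the highest rho is 0.51, for this pair, and cell 8 lies apart at a Serping1 value of 8.05.

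The genes most like each complement gene across the 44 cells differed from one complement gene to the next. Serping1 was most like C1ra (0.51), C1rb (0.47) and Scara5, a ferritin receptor (0.46). C1ra was most like C1rb (0.91), the lysosomal and melanosomal glycoprotein gene Gpnmb (0.53) and Serping1. C3 was most like the ribonuclease gene Ang and the lipid phosphate phosphatase gene Plpp3 (0.62 each) and the transporter gene Slc43a3 (0.59). Within the sets these values ran from 0.49 to 0.71, which is no separate check because the genes were picked over the same cells. C4b was most like Tor1aip2, a nuclear envelope protein gene (0.62), the glypican Gpc3 (0.55) and Tmem176b (0.51). C1s1 was most like the caveolin gene Cav1 (0.48), Rpl26 (0.47) and Romo1 (0.42). Cfb, held by 8 cells, was most like Uba1, Gstm2 and Mprip (0.51, 0.46 and 0.44). For C1rl the genes were Pcyt1a, Kif3a and Snx21, and for Cd59a Adam9, Isca1 and Osr2; those lists rest on 3 cells and 1 cell.

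Averaged over the 5 genes held by at least 11 cells, the highest mean rho belonged to C1rb (0.40), Mnda, of the interferon-inducible p200 family (0.37), and Hspa8, a constitutive heat shock protein gene (0.35). The C1rb mean includes its 0.91 with C1ra, from which it could not be kept apart with certainty. With the remaining genes C1rb ran from 0.07 for C1s1 to 0.47 for Serping1. The lowest mean rho belonged to Acta2, smooth muscle actin (-0.34), Ndufv2, a respiratory chain subunit (-0.29), and Ctgf, a matricellular growth factor gene (-0.27). Acta2 was below 0 with each of the 5 genes, from -0.50 with C3 to -0.19 with C1s1. Its mean was -0.29 in the first set of libraries and -0.36 in the second. Acta2 was picked over these same cells, so the values within the sets are no separate check. It was held by 16 cells.

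Complement genes also differed in how they followed subset genes of fibroblasts. Against the mean of 11 genes of Dpp4-type fibroblasts, such as Pcolce2, Scara5 and Fbn1, C3 had a rho of 0.43, with 0.49 and 0.33 within the sets. Serping1 had 0.22, C1ra -0.03, C1s1 -0.10 and C4b -0.14. For C1s1 the sets differed in sign, with 0.07 in the first and -0.26 in the second. Against 11 genes of Cxcl14-type fibroblasts, such as Apod, Inmt and Ltbp4, the order over all cells was nearly the reverse. C1s1 had 0.32 and C4b 0.31, C1ra 0.24, Serping1 0.13 and C3 0.02. Within the sets C1s1 had 0.37 and 0.26 and C4b 0.33 and 0.26, whereas C1ra had -0.06 and 0.52. C3 had -0.12 and 0.18, so it was the lowest of the genes named in the first set only. Whether the rho values of 2 complement genes differ was not tested.

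Interferon gamma, interleukin 6 and tumour necrosis factor are known to raise several of these genes in fibroblasts. The interferon gamma receptor chain Ifngr1 was held by 36 cells, the NF-kB inhibitor Nfkbia by 26, Socs3 by 25 and Tnfrsf1a by 22. These were the most frequent of 20 receptors and factors, and the median over the 20 was 10.5 cells. Of 14 interferon targets, the most frequent were Ifitm3 and B2m, held by 44 cells each, Gbp7 by 11 and Bst2 by 10. The median over the 14 was 4.5 cells, and Isg15 was held by 0. With the mean of the 14 targets, the 8 genes had rho values from -0.09 for Cd59a to 0.17 for Serping1. The sets differed: in the first, Serping1 had 0.46, C1ra 0.40, Cfb 0.23 and C1s1 0.22, and in the second -0.04, -0.04, -0.19 and -0.21. With the mean of 20 receptors and factors, C4b had 0.33, which was 0.43 and 0.23 within the sets and 0.56 with values as deposited, and the other 7 genes lay between -0.16 and 0.14. Immediate early genes, which rise during tissue digestion, had -0.25 with C3 and 0.24 with C1ra; for C3 this was -0.53 in the first set and 0.09 in the second. The part of digestion in these levels was not tested.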

How the data were processed

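Single cells were picked after sorting, and libraries were made with the Nextera XT kit, per the labels' protocols. The authors deposited 1 table of log2 FPKM values for 12745 rows and 44 cells. TopHat2, Cufflinks and GRCm38 are named without versions, per the submitters' processing notes. The log base and added 1 were read from the values: back-transformed FPKM values added up to 579623 to 579912 in each cell. At each of the 4000 highest ranks the cells lay within 0.0876 of each other, so a shared distribution had been imposed before deposit, and no source used here describes that step. No counts were available, so depth and its precision are unknown.

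Repeated symbols were reduced to the row with the highest mean (C1s2 by its annotated ID), leaving 12707 symbols; 12711 rows matched reference gene IDs and 18 date-like symbols were restored. Linked libraries were pairs with a Spearman rho of at least 0.545 over every other row (Otsu's method). Blocks were groups of at least 5 mutually linked cells. Signal expected from linked cells was 0.276% of their summed FPKM, the median for 392 genes strong in 1 cell. Likeness was Spearman's rho over cells with values under 5 set to 5, among symbols held by at least 11 cells. The text names, for each of the 8 genes, the 3 most like it, and the 3 highest and 3 lowest by mean rho. Another complement gene was taken out of the lists and is not reported here. Members and lists were chosen with earlier results of these data known. Python 3.11.15, NumPy 2.4.6, SciPy 1.17.1 and pandas 2.3.3 were used, and the link and likeness steps were tested on simulated data. Alternatives were thresholds of 1, 4 and 6, other floors, Pearson's r, block centring and leaving out blocks.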

Additional observations from a re-analysis of the deposited data

How the results depend on the processing

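No paired analysis was possible because the 44 cells form 1 group. The number of complement genes held by at least 22 cells was 4 with thresholds of 4 and 6, over 5 times the linked signal, with the first row of a symbol and without any of the 6 blocks, and 6 at a log2 value of 1. Per cell, the median moved from 4 to 6 at a log2 value of 1. Of the other complement genes, those held by at least 22 cells numbered 10 at a log2 value of 1 and 3 at 6, against 6 at 5. The rho of Serping1 and C1ra ran from 0.41 (Pearson, pseudocount 0.1) to 0.54. The median over pairs ran from 0.07 in the first set to 0.20 in the second. Pairs with Cd59a had no rho in the first set and pairs with C1rl none in the second. The medians within the sets leave those pairs out and so cover different pairs. The rho of Serping1 and C1ra moved by under 0.156, 1 over the square root of the number of cells less 3. That limit treats cells as independent, which linked libraries are not. The median over pairs, 0.14 over all cells, was itself below the limit, so the limit cannot judge its change. The 15 genes named as most like the 5 frequent complement genes were the least stable: 9 were shared with values as deposited, 5 within the first set and 2 within the second, and 10 with no filter or with a filter of 22 cells. The splits into sets and the omission of cells 8 and 23 were chosen after seeing the data. The setting over 5 times the linked signal asked for a log2 value of 1 or more, not 5. With it Cfb was present in 14 cells, C1rl in 6 and Cd59a in 5, so it was not a stricter filter for these genes.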
